A study of Homo sapiens with 24 samples.

Results

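The enzymes that write, maintain and erase cytosine methylation were described, with the core of the Polycomb repressive complex that methylates histone H3. The libraries were labelled as 3 TNBC cell lines. The members were the rows with the symbols DNMT1, UHRF1, DNMT3A, DNMT3B, TET1, TET2, TET3, EZH2, EED and SUZ12, 10 genes found in all 4 deposited tables, which list 19283 (Hs578T), 18248 (HCC70), 60651 (KIF20A depletion) and 23792 (KIF20A overexpression) genes. All 10 passed the minimum mean of 1 in every table. RNA-Seq was done on 24 libraries, with 3 replicates for each of 8 conditions. BCSCs, the CD24-CD44+ and ALDH+ cells taken by FACS from wild-type Hs578T and HCC70, were compared with non-BCSCs, the cells lacking both phenotypes. Cells labelled MDA-MB-231, infected with lentivirus and selected with puromycin, carried control sgRNA (sgCtrl), KIF20A sgRNA #1 (KIF20A sg1), empty vector (EV) or a construct labelled KIF20A overexpression (KIF20A OE). By their markers, given below, the libraries labelled KIF20A OE went against this cell line label. KIF20A is a kinesin of cell division. Each of the 4 experiments had its own batch label, and levels were therefore compared only within a table.

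DNMT1 copies methylation to the new DNA strand after replication, guided by UHRF1, which binds hemimethylated CpG sites. DNMT3A and DNMT3B methylate new sites, and the TET dioxygenases oxidize 5-methylcytosine as the first step of its removal. EZH2 places methyl groups on lysine 27 of histone H3 as the catalytic subunit of PRC2, for which EED and SUZ12 are required. DNA methylation and this histone mark are both known for keeping genes silent.

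The bases before the start site are shown for UHRF1, the member whose BCSC difference varied most between the sorted lines, for TET1, which differed most in the libraries labelled KIF20A OE, and for the PRC2 gene SUZ12. Each run is GRCh38 sequence, 250 bases long, ending just before the start of the Ensembl canonical transcript of GENCODE 44 and written 5′ to 3′ on the strand of the gene, which is the plus strand for all 3. Capitals mark E2F-type letters (TTTCCCGC, TTTCGCGC, TTTGCCGC or TTTGGCGC), the CHR letters TTTGAA and CCAAT, each searched on both strands, and no marked matches overlapped each other.
UHRF1, chr19:4909251-4909500: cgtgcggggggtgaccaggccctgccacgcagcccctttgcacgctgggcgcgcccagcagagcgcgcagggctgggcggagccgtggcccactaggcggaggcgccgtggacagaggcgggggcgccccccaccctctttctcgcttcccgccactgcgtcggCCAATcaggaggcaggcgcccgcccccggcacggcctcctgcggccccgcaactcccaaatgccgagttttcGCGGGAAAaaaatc
TET1, chr10:68560087-68560336: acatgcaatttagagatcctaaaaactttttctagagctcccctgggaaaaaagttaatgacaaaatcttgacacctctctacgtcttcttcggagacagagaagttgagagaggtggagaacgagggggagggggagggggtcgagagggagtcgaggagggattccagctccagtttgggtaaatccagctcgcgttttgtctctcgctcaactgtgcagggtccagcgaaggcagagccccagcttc
SUZ12, chr17:31936757-31937006: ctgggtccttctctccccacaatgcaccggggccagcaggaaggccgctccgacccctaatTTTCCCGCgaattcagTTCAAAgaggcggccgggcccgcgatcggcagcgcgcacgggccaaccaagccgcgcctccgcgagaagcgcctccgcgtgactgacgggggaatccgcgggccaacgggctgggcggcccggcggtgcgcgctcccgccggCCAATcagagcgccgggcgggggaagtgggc
Windows were searched for 9 of the 10 genes, all but DNMT3B. Of these, 2 held E2F-type letters (UHRF1 and SUZ12), 1 the CHR letters (SUZ12) and 4 CCAAT, which EZH2 held at 4 places. Among 27305 RefSeq windows of the same length, 2.79%, 13.6% and 33.0% held these letters. The GC box GGGCGG was in 6 of the 9 windows and in 42.3% of the RefSeq windows. The number of CpG sites ran from 9 in TET1 to 38 in EZH2, against a median of 11 in the RefSeq windows. These matches describe letters only. TET1 spans chr10:68560337-68694487 and SUZ12 chr17:31937007-32001038, both windows lying just outside their gene, whereas that of UHRF1 lies inside its span of chr19:4903080-4962154 because other annotated transcripts start upstream. For 7 of the 9 genes the RefSeq window was the same as the one used here.

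KIF20A itself was read first. It stood at 153, 173 and 156 normalised reads in the sgCtrl libraries and at 122, 145 and 91.1 in the KIF20A sg1 libraries, lower in each of the latter. The log2 fold change of -0.45 (standard error, SE, 0.16) had an adjusted p of 0.69 by limma. These are RNA values, whereas the paper assessed KIF20A protein in MDA-MB-231 cells with KIF20A sgRNAs by immunoblot. In CPM, KIF20A RNA was at 101, 143 and 124 in EV and at 1348, 269 and 896 in the libraries labelled KIF20A OE. These last 3 libraries went against their cell line label. CD44, a surface protein abundant in MDA-MB-231 cells, was at 523 to 788 CPM in EV and 0.125 to 1.23 CPM in them, and all 10 mesenchymal breast line markers were called lower (median log2 fold change -7.05). All 8 markers of the HEK293 embryonic kidney line were called higher, with a summed level of 1664 to 2207 CPM against 0 to 0.0476 in EV. IRS4, the most abundant of them, was at 1219 to 1750 CPM and had no read in EV. Their part in the differences given for these libraries was not tested. In the sorted lines, VIM was at 3661 to 4016 TPM in Hs578T and KRT5 at 4017 to 4479 TPM in HCC70. Of the sorting markers, ALDH1A3, an aldehyde dehydrogenase, was at 280.0 to 296 TPM in Hs578T non-BCSCs and 701 to 709 TPM in BCSCs, and CD24 at 828 to 912 TPM in HCC70 non-BCSCs and 667 to 725 TPM in BCSCs. CD44 in both lines, CD24 in Hs578T and ALDH1A3 in HCC70 overlapped between fractions, so the RNA of the sorting markers separated the fractions in part. Of the 10 mesenchymal line markers in Hs578T, AXL was called higher in BCSCs (log2 fold change 0.22) and S100A4 (-0.53) and TGFBI (-0.24) lower. Over all genes tested, 7.15% were called. Of the 10 markers, 7 did not overlap between fractions, against 29.0% of all genes. The part of these markers in the members' differences was not tested. In HCC70, 0 of 8 mesenchymal and 0 of 8 basal epithelial markers were called, and 0 of 2 basal markers in Hs578T. The leukocyte and endothelial markers summed to at most 4.16 TPM in Hs578T. In HCC70 they summed to 84.8 to 90.7 TPM in BCSCs and 95.4 to 119 TPM in non-BCSCs, without overlap, where 30.9% of all genes tested did not overlap. Only 1 of these 6 markers reached the minimum mean in HCC70, so the sum rests mostly on that gene. It was not called (log2 fold change -0.304).

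Among the sorted cells, the levels in TPM, which carry a length term, put DNMT1 first in every group (117 ± 2.10 TPM in Hs578T non-BCSCs and 125 ± 3.34 in HCC70 non-BCSCs, SD, n = 3). TET1 was last in all 4 groups, although in Hs578T non-BCSCs its range met that of DNMT3A. The order between them differed with the line. In HCC70, EZH2 came second, with 98.5 ± 4.72 TPM in non-BCSCs and 104 ± 4.29 in BCSCs, and stood 2.49 ± 0.0426 and 2.70 ± 0.0844 times as high as EED. In Hs578T, EZH2 was at 29.0 ± 1.51 and 28.2 ± 0.999 TPM and stood below EED, with ratios of 0.896 ± 0.0195 and 0.881 ± 0.0407. The de novo enzymes were ordered oppositely in the 2 lines: the ratio of DNMT3B to DNMT3A was 1.61 ± 0.182 in Hs578T non-BCSCs and 0.376 ± 0.0264 in HCC70 non-BCSCs. UHRF1 was at 0.281 ± 0.00942 of DNMT1 in the former and at 0.101 ± 0.00726 in the latter. These ratios come from separately scaled tables and were not tested between lines. In bulk RNA, fewer cells that express a gene and less RNA per cell cannot be told apart.

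**Figure D1:**
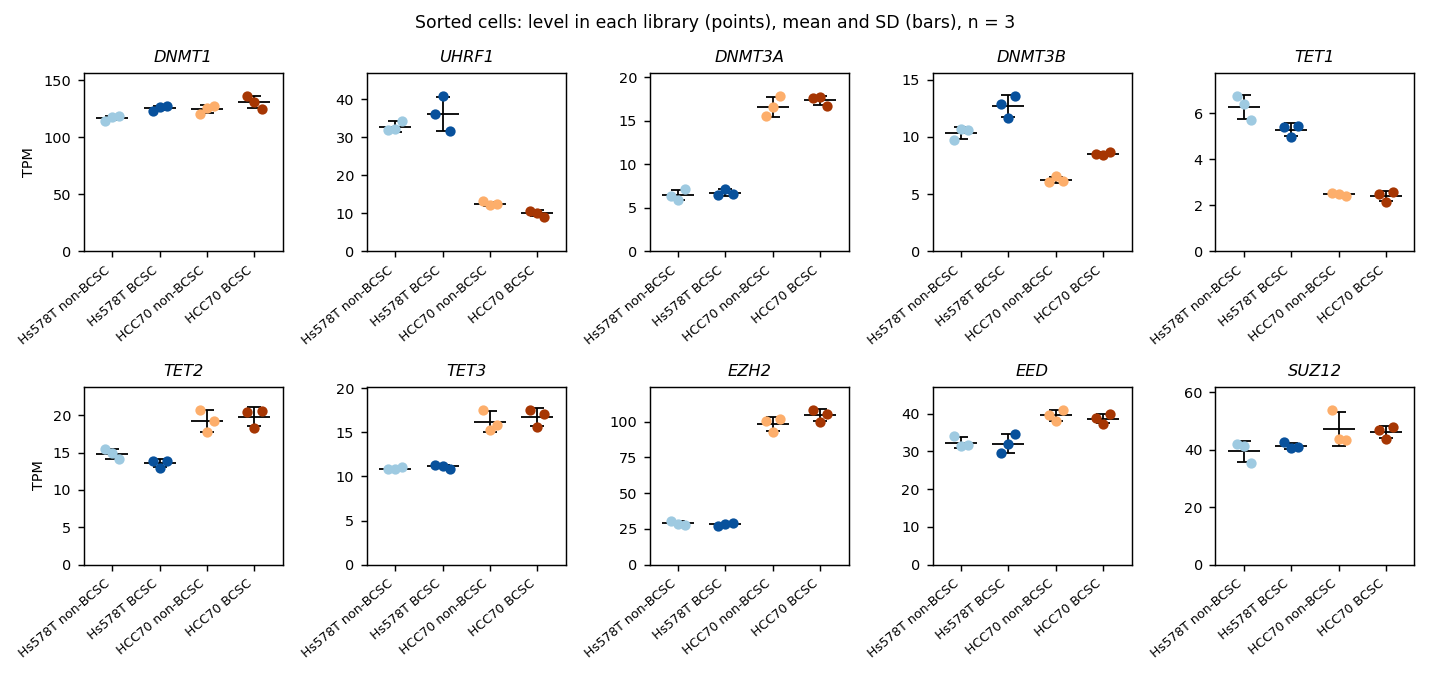
Level of each of the 10 genes in the sorted libraries, in TPM on linear axes that start at 0; points are libraries, horizontal bars means and error bars SD (n = 3). DNMT3B is higher in every BCSC library than in any non-BCSC library of the same line, whereas EZH2, EED and SUZ12 overlap between the fractions of both lines.

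Whether BCSCs differ from non-BCSCs in these enzymes was addressed within each line. DNMT3B was the member that rose in HCC70 BCSCs, by 1.37-fold, and its level in Hs578T BCSCs was 1.23-fold that of non-BCSCs without passing the test. UHRF1 was lower in HCC70 BCSCs, at 0.800 of the non-BCSC level, and also did not pass. The 3 PRC2 core genes differed by 0.09 or less on the log2 scale in both lines, and none was called. In Hs578T, limma called 0 of the 10 members, where 7.15% of the 13324 genes tested were called, 386 higher and 567 lower (620 and 573 with the median of ratios). At an unadjusted p under 0.05 there were 3 (DNMT1, DNMT3B and TET1), against 22.5% of all genes. edgeR called 1 and DESeq2 2, against 12.4% and 10.7%. In HCC70 it called 1 of 10, against 2.83% of 13218 genes, and edgeR and DESeq2 each called 2, against 5.42% and 8.94%. Of the 10, 2 had an unadjusted p under 0.05, against 23.7% of all genes. The median log2 fold change of the members was 0.04 in both lines, beside -0.01 over all genes in Hs578T and 0.02 in HCC70. Groups did not overlap for 4 members in Hs578T and 2 in HCC70, where 29.0% and 30.9% of all genes tested did not overlap, so these counts do not set the members apart.

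DNMT3B was at 6.03, 6.55 and 6.15 TPM in HCC70 non-BCSCs and at 8.51, 8.45 and 8.70 TPM in HCC70 BCSCs, from 281 to 522 recovered reads per library. Every BCSC library lay above every non-BCSC library, and the gap exceeded the spread within either group. The log2 fold change on log2(TPM + 1) was 0.40 (SE 0.07, adjusted p = 0.032 by limma). The size stayed between 0.38 and 0.45 under all 14 alternatives, but the call was lost when any 1 of the 6 libraries was left out (adjusted p = 0.0583 to 0.142). In Hs578T, DNMT3B was at 9.73, 10.7 and 10.6 TPM in non-BCSCs and 12.9, 11.7 and 13.5 TPM in BCSCs. These groups did not overlap either, and the log2 fold change was 0.27 (SE 0.07, adjusted p = 0.0569 by limma). It passed under 5 of 14 alternatives: edgeR (0.0168), DESeq2 (0.00727), the median of ratios (0.0362), a minimum of 5 TPM (0.0484) and without BCSC replicate 2 (0.0258). Under the others the adjusted p reached 0.185 (limma without BCSC replicate 1). The difference between the lines was 0.13 (SE 0.09, adjusted p = 0.396). Its partner DNMT3A overlapped between fractions, at 5.91 to 7.11 TPM in Hs578T non-BCSCs and 6.43 to 7.19 in BCSCs. In HCC70 the DNMT3A ranges, 15.5 to 17.8 and 16.7 to 17.7 TPM, overlapped as well, and the log2 fold changes were 0.05 and 0.06 (SEs 0.08 and 0.07).

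UHRF1 was at 13.2, 12.1 and 12.3 TPM in HCC70 non-BCSCs and 10.7, 10.2 and 9.15 TPM in HCC70 BCSCs. The groups did not overlap, with a log2 fold change of -0.30 (SE 0.08, adjusted p = 0.0789 by limma). UHRF1 passed under 2 of 14 alternatives, edgeR (0.0400) and DESeq2 (0.0114) on recovered reads. In Hs578T it was at 32.0, 32.1 and 34.4 TPM in non-BCSCs and 36.2, 40.8 and 31.7 TPM in BCSCs, where replicate 3 lay below all non-BCSC libraries and the groups overlapped. The change there was 0.13 (SE 0.09, adjusted p = 0.425), or 0.04 without BCSC replicate 2 and 0.22 without BCSC replicate 3. UHRF1 had the largest difference between lines in the BCSC log2 fold change among the members, -0.43 (SE 0.12, adjusted p = 0.0505), and none of the 10 passed this test, against 7.11% of 11668 genes (656 higher and 174 lower in HCC70, or 403 and 333 with the median of ratios), and 1 had an unadjusted p under 0.05, against 26.8% of all genes. UHRF1 passed it under 2 of 17 alternatives, a pseudocount of 0.1 (adjusted p = 0.0495) and without Hs578T BCSC replicate 3 (0.0153). Under the others the adjusted p reached 0.119 by limma. DNMT1 was at 114, 118 and 118 TPM in Hs578T non-BCSCs and 123, 126 and 127 in BCSCs, without overlap. With a small step of 0.10 (SE 0.04, adjusted p = 0.169 by limma), DNMT1 passed under 1 of 14 alternatives, DESeq2 (0.0381). In HCC70 its ranges of 121 to 127 and 125 to 136 TPM overlapped.

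The TET genes showed no called difference between fractions. TET1 was at 6.74, 6.40 and 5.70 TPM in Hs578T non-BCSCs and 5.43, 4.95 and 5.47 TPM in BCSCs, lower in each BCSC library, with a log2 fold change of -0.21 (SE 0.08, adjusted p = 0.157). TET2, the most abundant of the 3 in both lines, was at 15.5, 14.9 and 14.2 TPM in Hs578T non-BCSCs and at 13.9, 13.0 and 13.8 TPM in BCSCs, also without overlap (-0.12, SE 0.06, adjusted p = 0.254). In HCC70, neither gene separated the fractions, with TET1 at 2.41 to 2.55 and 2.15 to 2.57 TPM and TET2 at 17.7 to 20.7 and 18.3 to 20.6 TPM. TET3 lay at 10.8 to 11.3 TPM in all 6 Hs578T libraries and at 15.3 to 17.6 TPM in all 6 HCC70 libraries.

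Of the PRC2 core, EZH2 was at 30.7, 28.6 and 27.8 TPM in Hs578T non-BCSCs and 27.2, 28.2 and 29.2 TPM in BCSCs. In HCC70 it was at 100.4, 93.2 and 102 TPM in non-BCSCs and 108, 99.9 and 105 TPM in BCSCs. The fractions overlapped in both lines, and the changes were -0.04 and 0.09 (SEs 0.05 and 0.06). EED ranged from 29.5 to 34.7 TPM in Hs578T and from 37.4 to 41.1 in HCC70, and SUZ12 from 35.2 to 42.6 and from 43.5 to 53.9, with fractions that overlapped each time. SUZ12 shares sequence with the pseudogene SUZ12P1, so its values depend on how such reads were assigned.

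The other genes of these pathways were read from fixed lists. Of 10 further PRC2 subunits tested in Hs578T and 9 in HCC70, 1 rose in each line, and it was the same gene. PHF19, which guides PRC2 to CpG-rich chromatin, was at 40.5, 41.1 and 43.1 TPM in Hs578T non-BCSCs and 50.2, 46.8 and 54.2 in BCSCs (0.27, SE 0.06, adjusted p = 0.0387). In HCC70 it was at 31.9, 35.6 and 33.7 TPM in non-BCSCs and 43.3, 44.6 and 42.7 in BCSCs (0.36, SE 0.06, adjusted p = 0.0268). Of 22 PRC1 subunits, the readers and ubiquitin ligases that act beside PRC2, 0 were called in either line, with medians of -0.02 and 0.04. ASXL1, a partner of the H2A deubiquitinase BAP1, was the 1 of 7 genes of the erasers that rose, in HCC70 (0.26, adjusted p = 0.0426), and 0 of 7 were called in Hs578T.

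Among 13 other genes of the DNA methylation machinery tested in HCC70, 1 fell. MBD3, a subunit of the NuRD repressor, was at 33.5, 20.6 and 17.6 TPM in non-BCSCs and 11.6, 11.0 and 10.9 TPM in BCSCs (-0.98, SE 0.20, adjusted p = 0.0477), with non-BCSC replicate 1 far above the other two. None of 14 was called in Hs578T, and MBD3 overlaps exons of another gene in the annotation. HELLS and CDCA7, which remodel nucleosomes for maintenance methylation, had log2 fold changes of -0.26 and -0.27 in HCC70 BCSCs (adjusted p = 0.140 and 0.0973). In the methyl donor cycle, 1 of 8 genes fell in Hs578T. This was NNMT, which consumes S-adenosylmethionine, at 84.3, 81.9 and 81.2 TPM in non-BCSCs and 47.7, 41.7 and 48.1 TPM in BCSCs (-0.84, SE 0.06, adjusted p = 5.65e-04). In HCC70, 0 of 7 were called. The enzymes around 2-oxoglutarate, the cosubstrate of the TET proteins, gave 0 calls of 9 in both lines.

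Genes known to be kept silent by these marks were mostly below the minimum. Of 16 classical Polycomb targets, 8 were tested in Hs578T and 6 in HCC70. GATA6, a zinc finger factor of endoderm, rose in Hs578T BCSCs, from 23.8, 23.5 and 21.3 TPM to 32.9, 39.9 and 29.7 TPM (0.55, SE 0.10, adjusted p = 0.0193), and 0 of 6 were called in HCC70. Of 14 germline genes silenced by promoter methylation, 3 were tested in Hs578T and 2 in HCC70. TUBA3C, which has near-identical paralogs, rose in Hs578T (0.58, adjusted p = 0.0105), at 138 to 282 recovered reads.

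Cell cycle genes moved with the same fractions. Of 20 G2/M genes, 18 rose in Hs578T BCSCs (median 0.35) and 18 in HCC70 BCSCs (median 0.57), and their summed level was 2656 to 2808 TPM against 3405 to 3638 in Hs578T and 1908 to 2012 against 2879 to 3072 in HCC70. Of 20 S phase genes, 0 were called in either line (medians 0.06 and -0.04). The part of these genes in the DNMT3B values was not tested. Over the 12 sorted libraries, with each line centred on its mean, the genes most like DNMT3B in log2(TPM + 1) were CDC20, an activator of the anaphase-promoting complex (Pearson's r = 0.980), PHF19 (0.979) and FOXM1, a transcription factor of G2/M genes (0.977), the highest of 11668 genes. This is a description over libraries that share the sort. UHRF1 was most like FAM20C, CAPN10 and HIST1H4J (r = 0.961, 0.958 and 0.957), and EZH2 most like SLC9A7, PMS2P4 and CFLAR (0.945, 0.942 and 0.935). With the 6 KIF20A depletion libraries added, DNMT3B was most like MYO5B, PTPRH and CRTC3 (0.959, 0.910 and 0.906 over 18 libraries) and UHRF1 most like ADRM1, MRPL52 and AGPAT2 (0.933, 0.932 and 0.932), so the nearest genes depended on which libraries were read.

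**Figure D2:**
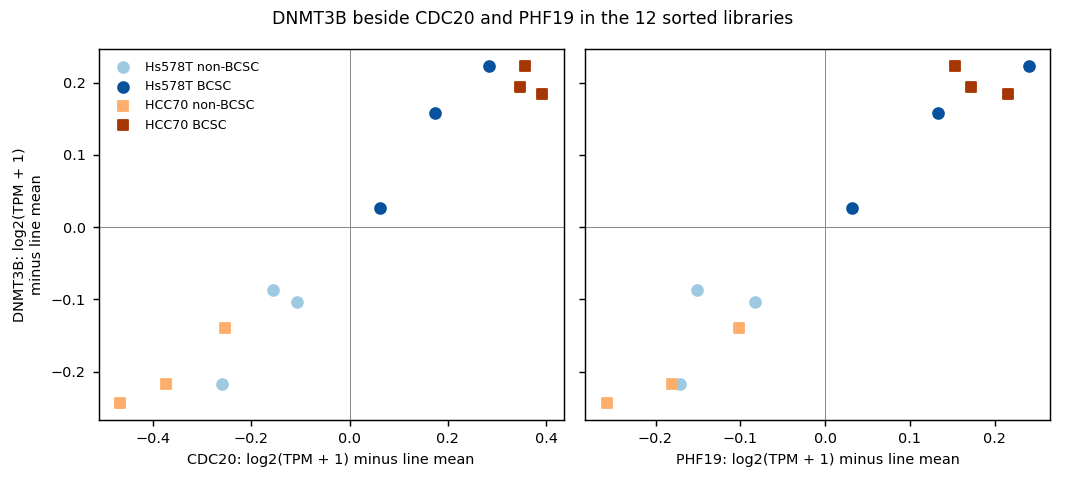
DNMT3B (y axis) against CDC20 (left) and PHF19 (right), each as log2(TPM + 1) minus the mean of its line, with 1 point per sorted library. Both genes were picked as most like DNMT3B (r = 0.980 and 0.979), and all 6 BCSC libraries lie above 0 and all 6 non-BCSC libraries below 0 on both axes.

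In KIF20A-depleted MDA-MB-231 cells, whose transcriptome was compared with that of sgCtrl cells, no member was called. Limma called 0 of all 12852 genes (0.0%), edgeR 0 and DESeq2 16; 899 genes (7.0%) had an unadjusted p under 0.05, and 0 members did. edgeR and DESeq2 also called 0 members. The median log2 fold change was 0.03 for the members and 0.00 for all genes. UHRF1 was at 257, 227 and 210.4 normalised reads in sgCtrl and 196, 210.0 and 200.2 in KIF20A sg1, and was the 1 member whose groups did not overlap, by less than 1 unit, where 13.0% of all genes did not overlap (-0.19, SE 0.12, adjusted p = 0.73). DNMT3B was at 9.39, 9.86 and 4.83 in sgCtrl and 8.67, 6.59 and 11.8 in KIF20A sg1, with sgCtrl replicate 3 lowest. TET2 was at 36.4, 30.0 and 27.8 in sgCtrl and 35.6, 41.9 and 35.7 in KIF20A sg1 (0.26, SE 0.15). SUZ12 was at 134, 148 and 199.5 against 174, 206 and 191 (0.26, SE 0.15), so that sgCtrl replicate 3 again stood apart from its group. The SUZ12 change was 0.43 without that library (adjusted p = 0.0798) and 0.14 without sgCtrl replicate 1.

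DNMT1 ranged from 363 to 467 normalised reads in sgCtrl and from 393 to 434 in KIF20A sg1, and EZH2 from 109 to 146 and from 123 to 142. For EED, DNMT3A and TET3 the ranges overlapped likewise. TET1, at 2.00, 2.81 and 2.61 against 1.96, 4.82 and 1.38, rested on 58 to 239 recovered reads, and KIF20A sg1 replicate 2 stood apart. Without sgCtrl replicate 3, 144 genes passed, and without KIF20A sg1 replicate 2, 5 passed, with 0 members among them in both cases. The standard errors of 0.12 to 0.29 bound what these libraries could show for the members. The order of levels depended on the gene length used. Per kilobase of all annotated exons, UHRF1 was the highest member in sgCtrl (45.0 ± 4.63 normalised reads per kb, SD), above DNMT1 (26.7 ± 3.40). With the lengths that reads per TPM imply in Hs578T (chosen after seeing the data), by which DNMT1 is 1.28 and not 2.99 times as long as UHRF1, DNMT1 came first at 321 ± 40.8 normalised reads per UHRF1 length, above UHRF1 at 232 ± 23.8. TET1 was lowest in sgCtrl either way. Of the lists, 0 of 20 G2/M genes were called, with a median of 0.23, and 0 of 20 S phase genes, with a median of -0.16. None of the pathway lists had a called gene either. As limma called 0 of all 12852 genes here, these counts do not set any list apart. Medians were 0.11 for 13 other genes of the methylation machinery, 0.03 for 9 further PRC2 subunits and -0.07 for 22 PRC1 subunits.

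**Figure D3:**
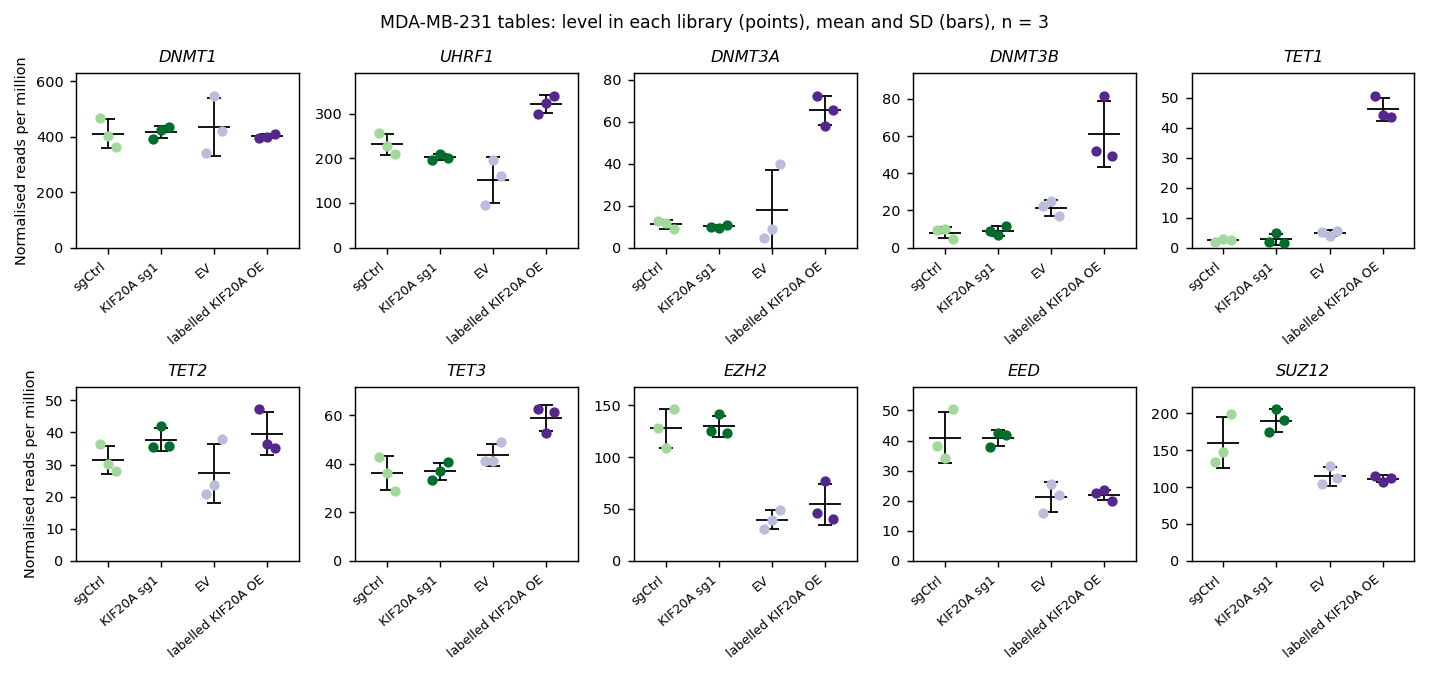
Level of each of the 10 genes in the tables labelled MDA-MB-231, in normalised reads on linear axes that start at 0. By their markers, the libraries labelled KIF20A OE went against this cell line label. Points are libraries, horizontal bars means and error bars SD (n = 3, and the EV bar of DNMT3A is cut at 0). The sgCtrl and KIF20A sg1 libraries come from one table and the EV libraries and those labelled KIF20A OE from another; TET1, DNMT3A, DNMT3B and UHRF1 are higher in each library labelled KIF20A OE than in any EV library.

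Between EV and the libraries labelled KIF20A OE, 5 of the 10 members were called, all of them higher, where 69.7% of the 15265 genes were called and 46.2% were called higher. The count of members called higher was thus near the background. edgeR and DESeq2 also called 5 members, against 65.1% and 66.7% of all genes, but of these 3 were higher (TET1, DNMT3B and UHRF1) and 2 lower (DNMT1 and SUZ12). The members' median log2 fold change was 0.49 beside 0.37 for all genes, a shift that the median of ratios reduced to 0.04, and that scaling split the calls into 5218 higher and 4968 lower in place of 7055 and 3579. Groups did not overlap for 5 members, against 74.1% of all genes.

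The largest difference was that of TET1, at 5.24, 3.82 and 5.41 CPM in EV, whereas the libraries labelled KIF20A OE held 50.7, 44.3 and 43.5 CPM, a ratio of 9.57. The log2 fold change was 3.03 (SE 0.18, adjusted p = 2.49e-06) and lay between 2.69 and 3.25 under the alternatives, all of them past the threshold. DNMT3A was at 4.57, 9.04 and 39.7 CPM in EV, against 72.2, 58.1 and 65.7 CPM where the label was KIF20A OE. EV replicate 3 stood apart from the other EV libraries, and the log2 fold change of 2.33 (SE 0.62, adjusted p = 0.00924) was 3.14 without it and 1.56 with edgeR and DESeq2, which did not call it (adjusted p = 0.0699 and 0.0944). DNMT3B rose from 22.1, 25.0 and 16.8 CPM to 52.1, 81.6 and 49.3 CPM (1.46, SE 0.23, adjusted p = 5.98e-04) and was called under all 14 alternatives, as was UHRF1, which rose from 95.3, 197 and 160.2 CPM to 299.7, 323 and 339.5 CPM (1.14, SE 0.24, adjusted p = 0.00287). Without EV replicate 1, the library with the least UHRF1, the change was 0.85.

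TET3 was at 41.0, 41.1 and 48.9 CPM in EV, against 62.5, 52.9 and 61.5 CPM where the label was KIF20A OE (0.43, SE 0.13, adjusted p = 0.0207). This call was lost with the median of ratios, which put the change at 0.07 (adjusted p = 0.673), with edgeR and DESeq2, and without any of 4 of the 6 libraries. TET2 was at 20.7, 23.5 and 37.8 CPM in EV and 47.2, 36.5 and 35.2 CPM in the others, with EV replicate 3 within their range (0.56, adjusted p = 0.0638). It passed under 1 of 14 alternatives, without that library (0.81, adjusted p = 0.00583). DNMT1, at 339.5, 546 and 422 CPM in EV and 396, 399 and 410.1 CPM in the others, was not called (-0.09, adjusted p = 0.650). The PRC2 core was not called either: EZH2 was at 30.9 to 49.3 and 40.2 to 77.1 CPM, EED at 15.9 to 25.7 and 19.9 to 23.4 CPM, and SUZ12 at 104 to 129 and 107 to 115 CPM. Relative to the shift of all genes, DNMT1 and SUZ12 lay lower, and the median of ratios called both lower (-0.46 and -0.40, adjusted p = 0.0360 and 0.0152), as did edgeR (0.0417 and 0.0202) and DESeq2 (0.0174 and 0.00544).

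Over all genes tested in this comparison, 69.7% were called and 46.2% were called higher, the share to set beside each count below. Of the related lists, 10 of 13 other genes of the methylation machinery were called, 7 higher and 3 lower. Among them were CDCA7 (2.78), ZBTB33 (1.76), ZBTB38 (-1.68) and HELLS (1.12). Of 10 further PRC2 subunits, 5 were called higher and 2 lower, with RBBP4 at 1.70 and PHF19 at -1.73. Of 22 PRC1 subunits, 12 were called higher and 4 lower, with BCOR (3.41) and CBX2 (2.91) at the top. Of 8 methyl donor genes, 3 were called higher and 4 lower (median -0.24), of 9 genes around 2-oxoglutarate 7 and 1 (median 0.62), and of 8 erasers 4 and 2 (median 0.46). Of 16 classical Polycomb targets, 15 were called higher and 1, GATA6, lower. CDKN2A, the cell cycle inhibitor, had a mean of 322 CPM and no read in EV, and HOXD13 had 154.5 CPM and no read in EV. What left these genes without a read in EV was not tested. Since HOXA11 is both a Polycomb target and one of the kidney markers, these lists are not separate. Of the S phase genes, 17 of 20 were called higher (median 1.05), beside 9 of 20 G2/M genes (median 0.41), and the germline genes left 1 of 14 tested, which was not called.

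**Figure D4:**
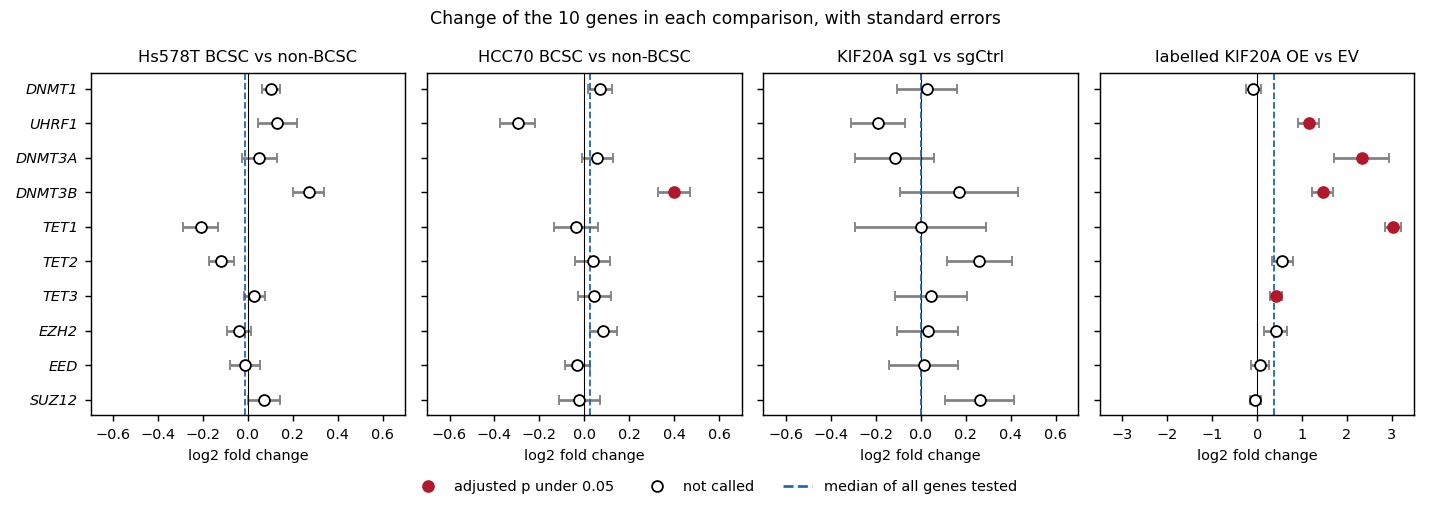
Log2 fold change of each of the 10 genes in the 4 comparisons, with standard errors (n = 3 per group); filled points have an adjusted p under 0.05 by limma, and the dashed line is the median of all genes tested. The axis of the right panel is 5 times as wide; the called members are DNMT3B in HCC70 (0.40) and UHRF1, DNMT3A, DNMT3B, TET1 and TET3 in the libraries labelled KIF20A OE (0.43 to 3.03).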

How the data were processed

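RNA was measured by poly-A, paired-end RNA-Seq in 24 libraries. The submitters' processing notes name GRCh38, HISAT2 2.0.5 and featureCounts 1.5.0-p3, and the annotation is not given in the sources used here. The authors deposited TPM for Hs578T and HCC70 (reads divided by transcript length, each column summing to 1000000), CPM for the overexpression experiment, and for the depletion experiment a normalised signal that they name CPM, whose columns sum to 977394 to 1028621. Whole reads were recovered from the deposited TPM, CPM and signal for 100.0% of listed genes (within 0.02 of a whole number in the CPM and signal tables; in the TPM tables by ratios of whole numbers within a gene, to a relative tolerance of 2e-08, or 3e-09 for high values, with a common divisor restored for 240 genes in Hs578T and 237 in HCC70). Each Hs578T library held 28401109 to 33971280 recovered reads and each HCC70 library 24978433 to 33977646, while libraries with sgRNA held 41424338 to 51018667 and the EV and KIF20A OE libraries 15971297 to 22182293. A total of 0 sample columns were left unused.

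Values were tested as log2(value + 1) for genes with a mean of at least 1, by limma 3.58.1 with a trend, run two-sided in R 4.3.3; p-values were adjusted by Benjamini-Hochberg over all genes of a comparison, with a threshold of 0.05. Fold changes on this scale understate those of low genes. The interaction of fraction and line used the 12 sorted samples, in which line and batch cannot be told apart. The fits were also run on simulated reads, with the same dispersion for every gene and changes larger than those of the members between fractions. That run does not bear on the calls given here. Groups of 3 against 3 allow an exact permutation test no p below 0.1. The labels call replicates biological triplicates without naming separate cultures, so p-values measure the spread between these samples, which may be technical. The alternatives were edgeR 4.0.16 or DESeq2 1.42.0 (both given the recovered reads), other scalings and minimums, a replicate block and leaving out each library.

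Genes named are the 10 members, KIF20A, markers, up to 6 called genes per list and comparison (4 for KIF20A OE) and the 3 genes most like a member by Pearson's r; HELLS and CDCA7 in HCC70 were added after their values were seen. The members and lists were chosen with earlier results of these data known. Positions, exon lengths and start sites come from GENCODE 44 on GRCh38 and comparison windows from RefSeq (GRCh38.p14), with Python 3.11.15, pandas 2.3.3 and matplotlib 3.10.9. The promoter window of 1 member is not reported here.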

Additional observations from a re-analysis of the deposited data

Results flagged for a closer look

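By the interaction test of limma, the difference between BCSCs and non-BCSCs differed between HCC70 and Hs578T for 14 genes of the related and marker lists. It differed for none of the 10 members. Over all 11668 genes tested, 7.11% passed. Of the members, 1 (UHRF1) had an unadjusted p under 0.05, against 26.8% of all genes. The values that follow are log2 differences of HCC70 minus Hs578T.

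Among genes beside the methylation and Polycomb enzymes, these were NNMT at 0.96 (adjusted p = 2.60e-04), which fell in Hs578T BCSCs (-0.84) and was not called in HCC70 (0.13), and the PRC1 subunit CBX7 at 0.41 (adjusted p = 0.0364), which was called in neither line alone. Among G2/M genes, MKI67 differed by 0.41, PLK1 by 0.40, CENPF by 0.38, CDC20 by 0.38, BUB1 by 0.36, AURKA by 0.36, KIF20A by 0.35 and CCNB1 by 0.31, each larger in HCC70. DNMT3B, which resembled CDC20 across the sorted libraries, differed by 0.13 (adjusted p = 0.396). Of the sorting and line markers, ALDH1A3 differed by -1.12, S100A4 by 0.76, TGFBI by 0.40 and CAV1 by 0.27.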

How the results depend on the processing

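Of 728 values of the 10 members recomputed under the alternatives, 641 kept their direction and side of the threshold, 17 passed and 16 lost it in the same direction, and 54 changed sign, none of these called. DNMT3B, TET1 and UHRF1 in the libraries labelled KIF20A OE kept their calls throughout. The lengths that reads per TPM imply, chosen after seeing the data, put DNMT1 above UHRF1 in sgCtrl. With a minimum mean of 5, TET1 was not tested in HCC70 or the depletion table. The cause of the changes given here was not tested, and a fit without 1 library also had fewer libraries. TET1 rested on 58 to 239 reads in the depletion table.

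The number of genes called in Hs578T (953) was 1646 with edgeR. In HCC70 (374) it was 243 with a minimum mean of 0.1, 232 with the median of ratios, 233 without the trend, 717 with edgeR and 1182 with DESeq2, and in the depletion table (0) 16 with DESeq2. Leaving out 1 library gave between 343 and 865 calls in Hs578T, between 32 and 270 in HCC70, 0 to 144 in the depletion table and 291 to 1225 for the difference between lines (830).

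Same-numbered samples correlated at -0.161 to 0.185 in their deviations. Each library labelled KIF20A OE correlated best with the EV library of its own number, at 0.014 to 0.058. With 3 libraries per group these values cannot decide whether the numbers pair the samples. With the replicate block, 128 genes were called in HCC70 and 302 for the difference between lines, and DNMT3B in HCC70 had an adjusted p of 0.0798.

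Signs changed for EED in Hs578T (0.012 with the median of ratios, 0.010 with edgeR and with DESeq2), for TET1 in the depletion table (0.005, 0.155 and 0.144 in that order), for EED there with DESeq2 (-0.003) and for EED in the KIF20A OE comparison (-0.283, -0.300 and -0.299). The difference between lines became -0.043 for DNMT3A and -0.036 for TET3 with the median of ratios.

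Leaving out 1 library spanned 0 for these log2 values. In Hs578T these were EED (-0.071 to 0.043), EZH2 (-0.069 to 0.001), DNMT3A (-0.004 to 0.112) and SUZ12 (-0.007 to 0.117), and in HCC70 SUZ12 (-0.074 to 0.077), TET2 (-0.017 to 0.091) and TET1 (-0.073 to 0.017). In the depletion table they were EED (-0.102 to 0.169), EZH2 (-0.080 to 0.133), TET1 (-0.377 to 0.267), TET3 (-0.099 to 0.178), DNMT1 (-0.057 to 0.123) and DNMT3B (-0.118 to 0.353). For the libraries labelled KIF20A OE, the same held of EED (-0.116 to 0.214), DNMT1 (-0.256 to 0.086) and SUZ12 (-0.109 to 0.048), and between lines EED (-0.074 to 0.040), DNMT3A (-0.054 to 0.062), SUZ12 (-0.145 to 0.006) and TET3 (-0.023 to 0.072).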
